A study of Mus musculus with 32 samples.

Results

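Lumbar spinal cord of SOD1G93A mice with and without LAG-3 was compared at P140, the late symptomatic stage, using 6 of the 32 libraries of the study. LAG-3 is an inhibitory receptor of the immunoglobulin superfamily, best known as a checkpoint on activated T cells and also made by activated microglia. SOD1G93A mice carry copies of a mutant human SOD1 gene and develop a paralytic disease in which motor neurons degenerate while microglia and astrocytes become reactive. The 3 libraries of each genotype were taken by their labels, and every gene of the table was read, with the result set out by the cell types of the cord.

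Both groups were SOD1G93A transgenic on a B6 background and were collected on postnatal day 140. The SOD1G93A/LAG-3-/- mice were homozygous for Lag3tm1Doi, a germline disruption made in 129S6 stock and bred onto B6, so the gene was disrupted in every cell type and from conception. The SOD1G93A/LAG-3+/+ mice were bred from the same crosses of heterozygous parents. No mice without the transgene were sequenced as whole cord, so these data give no level in healthy tissue. The tissue was whole lumbar cord, in which fewer cells of a type and less RNA per cell cannot be told apart.

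In a spinal cord with this disease, homeostatic microglia bear sensing receptors such as P2ry12 and Tmem119, and those near dying neurons take up a disease-associated state with lysosomal, lipid and phagocytic genes such as Clec7a, Itgax, Cst7 and Gpnmb. Reactive astrocytes raise intermediate filament and acute-phase genes such as Gfap and Serpina3n. Motor neurons are cholinergic (Chat, Slc5a7, Slc18a3), are held in check by glycinergic interneurons (Slc6a5, acting on the glycine receptor Glra1), and send axons that oligodendrocytes ensheath with myelin inside the cord and Schwann cells outside it.

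The libraries held 19430102 to 26994524 estimated counts, and 17702 genes passed a filter on low counts. Levels are given as CPM, a gene's counts relative to the total of its library, after scaling by the trimmed mean of M values, in the order of replicates 1, 2 and 3. Fold changes are on the log2 scale, LAG-3-/- against LAG-3+/+, with their standard errors, from the quasi-likelihood test of edgeR. A gene rose or fell where its p, adjusted over all genes tested by the Benjamini-Hochberg method, was under 0.1. The p-values measure the spread between these libraries, of which each is 1 mouse as far as the labels tell.

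Several features moved with genotype or with 1 library. By Xist and 4 Y-linked transcripts, the 3 LAG-3+/+ libraries and LAG-3-/- replicate 1 were female and LAG-3-/- replicates 2 and 3 male, which went against the listed sex of 2 LAG-3+/+ libraries. Transcripts of the mitochondrial genome took 4.60 to 6.78% of the counts in LAG-3+/+ and 7.99 to 14.8% in LAG-3-/- libraries. The 18S ribosomal RNA entry stood at 893.5 to 1310 CPM in LAG-3+/+ and at 3622 to 7506 CPM in LAG-3-/- libraries, here without that scaling. LAG-3-/- replicate 2 stood apart in the transcripts of Schwann cells, with a summed level of 1531 CPM against 62.9 to 105 CPM in the other 5. Its summed levels of erythroid genes (165 CPM, elsewhere 10.9 to 32.7) and of fibroblast genes (591 CPM, elsewhere 115 to 135.5) were also the highest. The part of these differences in the results below was not tested, except where a value without that library is given.

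**Figure D1:**
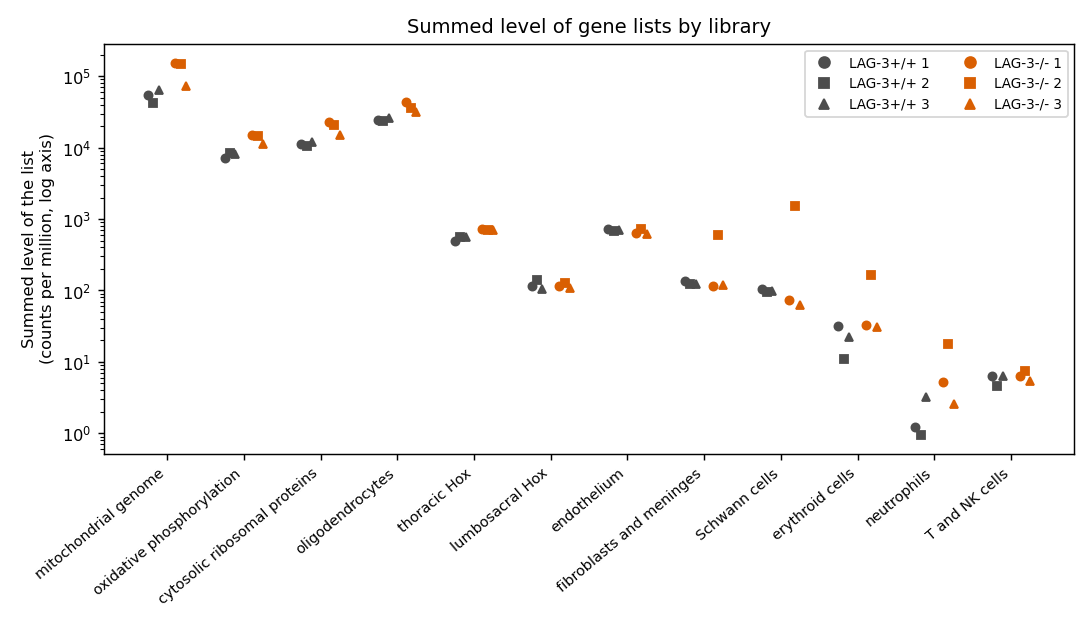
Summed level of the genes of each list (CPM, log axis) in the 6 libraries, grey for LAG-3+/+ and orange for LAG-3-/-. The Schwann cell list reached 1531 CPM in LAG-3-/- replicate 2 and lay between 62.9 and 105 CPM in the other libraries. The mitochondrial, oxidative phosphorylation, ribosomal, oligodendrocyte and thoracic Hox lists were higher in each LAG-3-/- library than in any LAG-3+/+ library.

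Lag3 itself (chromosome 6, 124881320 to 124888765, GRCm39) stood at 74.5, 43.4 and 61.4 CPM in the LAG-3+/+ and at 5.72, 5.60 and 5.50 CPM in the LAG-3-/- libraries. The groups were far apart in the direction of their labels, with a log2 fold change of -3.41 ± 0.19 (adjusted p = 4.34e-05, edgeR). The disrupted allele still gave 100, 142 and 110 counts, so reads of the locus were reduced and not absent. Sod1 stood at 1317, 1420.3 and 1459.8 CPM in LAG-3+/+ and at 2889.9, 2549 and 1890.4 CPM in LAG-3-/- libraries, a log2 fold change of 0.80 ± 0.17 (adjusted p = 0.0038). Reads of the human transgene were assigned to a mouse transcriptome, so how much of this value is mouse or human transcript is unknown.

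In the whole transcriptome, 4096 genes rose and 4234 fell, which is 23.1% and 23.9% of the genes tested. With the further condition of an absolute log2 fold change above 1, the study's own threshold, 773 rose (4.37%) and 558 fell (3.15%). These shares are the background for the counts below. The balance of rises and falls depended on the scaling: with library size alone 2928 genes rose and 5316 fell, so that 35.5% of the calls were higher and not 49.2%.

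The difference between the genotypes followed transcript length. Among 10 bins with equal numbers of genes, the median log2 fold change went from 0.56 in the shortest bin (96 to 1048 bases) to -0.56 in the longest (6900 bases and above). In the shortest bin 42.7% of the genes rose and 5.53% fell, and in the longest 2.20% rose and 73.1% fell. Across 17695 genes with a known length, the fold change and the length had a Spearman correlation of -0.56, a description of genes that share the same libraries. The slope was present in each LAG-3-/- library, with rho from -0.58 to -0.47 against the LAG-3+/+ mean, whereas each LAG-3+/+ library had a rho from -0.08 to 0.08 against the other ones of its group.

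**Figure D2:**
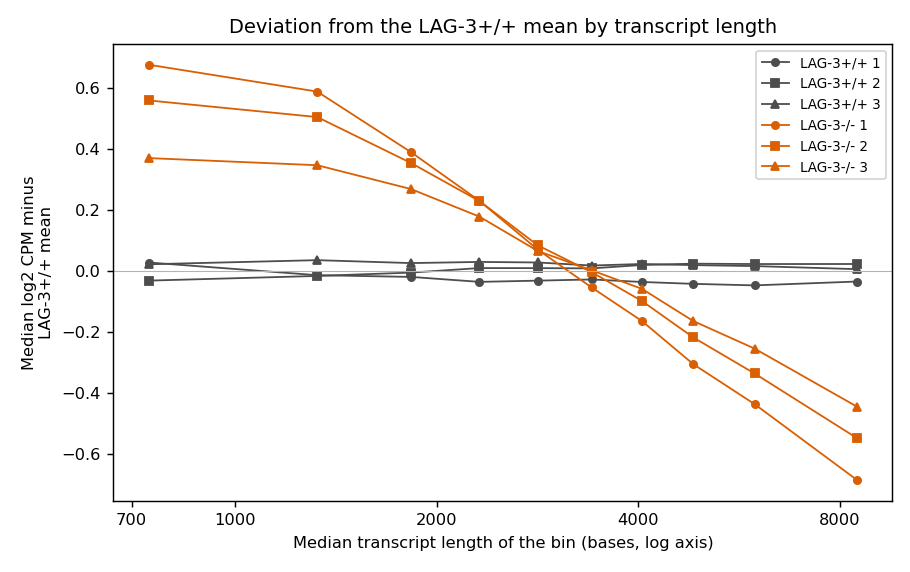
Median difference in log2 CPM from the LAG-3+/+ mean, for 10 bins of genes by transcript length (bases, log axis), with 1 line per library. The 3 LAG-3-/- libraries fell along the axis, from 0.68, 0.56 and 0.37 in the shortest bin to -0.68, -0.55 and -0.44 in the longest, and the LAG-3+/+ libraries stayed within 0.05 of 0.

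Each result was therefore also read after a correction that removed, in every library, the trend of the levels on transcript length and GC content. The correction removes any true difference that runs along length as well, and it takes 1 annotated transcript per gene, which for Sod1 (5315 bases) or Rpl5 (3646 bases) may not be the one that the cord uses. After it 2450 genes rose (13.8%) and 2229 fell (12.6%). Of the 4096 and 4234 genes called without it, 1806 and 1720 were called in the same direction and 29 genes in all were called in opposite directions. Values after this step are called corrected. Where no corrected value of a gene is printed, its fold change and its call are those without the correction.

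Many microglial genes of the disease-associated state were lower in LAG-3-/- cord. Of 27 disease-associated genes, 13 fell and 1 rose, with a median log2 fold change of -0.41, against 0.00 over all genes. After correction 19 fell and none rose, with a median of -0.64. Without LAG-3-/- replicate 2 the corrected count was 12 lower (background 7.69%). The 13 that fell were Lpl, Cst7, Spp1, Itgax, Clec7a, Axl, Gpnmb, Ctsb, Cd68, Igf1, Csf1, Cybb and Atp6v0d2, and the one that rose was Fabp5, a fatty acid binding protein.

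Clec7a, which encodes the fungal glucan receptor Dectin-1, stood at 113, 69.6 and 105 CPM in LAG-3+/+ and at 40.2, 20.2 and 26.5 CPM in LAG-3-/- libraries. The groups did not overlap, and the log2 fold change was -1.73 ± 0.29 (adjusted p = 0.00453) and -2.12 corrected (adjusted p = 0.00444, edgeR). Clec7a lies 4.55 Mb from Lag3 on chromosome 6. A region near the disrupted locus can come from the 129S6 stock, and effects of such linked alleles and of the loss of LAG-3 cannot be told apart. Within 10 Mb of Lag3, 38 of 190 tested genes rose (20%) and 42 fell (22.1%), close to the shares in all genes.

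Cybb, the catalytic subunit of the phagocyte NADPH oxidase, stood at 46.4, 32.2 and 42.6 CPM in LAG-3+/+ and at 13.8, 12.4 and 11.8 CPM in LAG-3-/- libraries (log2 fold change -1.68 ± 0.15, adjusted p = 0.000106, edgeR; corrected -1.37). Cybb is on the X chromosome, and of the LAG-3-/- libraries the female one had the highest level. The part of sex in this difference was not tested, and no value of Cybb is given from the fit with sex as a covariate below. Atp6v0d2, a subunit of the lysosomal proton pump, stood at 5.76, 3.61 and 4.88 CPM against 1.03, 1.14 and 1.001 CPM, a log2 fold change of -2.16 ± 0.25 (adjusted p = 0.000294) that was -2.17 corrected. Igf1, the insulin-like growth factor that activated microglia secrete, stood at 37.8, 27.2 and 38.5 CPM against 16.5, 13.5 and 14.9 CPM (-1.21 ± 0.15, adjusted p = 0.000323, edgeR; corrected -0.73). All LAG-3-/- values of these genes lay below all LAG-3+/+ values.

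Axl, a receptor for the clearance of dying cells, stood at 252, 204 and 249 CPM in LAG-3+/+ and at 151, 118 and 152 CPM in LAG-3-/- libraries, a log2 fold change of -0.74 ± 0.14 (adjusted p = 0.0018, edgeR; corrected -0.64). Cd68, a protein of late endosomes and lysosomes in macrophages, stood at 118, 75.2 and 112 CPM against 72.1, 41.3 and 55.7 CPM (-0.85 ± 0.23, adjusted p = 0.0213, edgeR; corrected -1.31). These groups did not overlap either, but without LAG-3-/- replicate 3 Cd68 missed the threshold (-0.87, adjusted p = 0.108, edgeR).

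The genes that form the upstream sensor of this state gave another picture. Trem2, the lipid-sensing receptor, stood at 123, 82.7 and 106 CPM in LAG-3+/+ and at 136, 78.7 and 95.9 CPM in LAG-3-/- libraries, and its adaptor Tyrobp stood at 89.4, 65.7 and 93.3 CPM against 106, 63.4 and 80.9 CPM. Both groups overlapped, with log2 fold changes of -0.01 ± 0.21 (adjusted p = 0.987) and 0.01 ± 0.20 (adjusted p = 0.974, edgeR). Their transcripts are short (1088 and 607 bases), and the corrected values were -0.60 (adjusted p = 0.0536) and -0.60 (adjusted p = 0.0393, edgeR), so the call on both turned on the correction. Without LAG-3-/- replicate 2 the corrected value of Trem2 missed the threshold (-0.43, adjusted p = 0.117), and that of Tyrobp was -0.41 (adjusted p = 0.0981, edgeR). Apoe, the lipid carrier, had a log2 fold change of -0.07 ± 0.21 (adjusted p = 0.826) and -0.41 corrected (adjusted p = 0.17, edgeR).

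**Figure D3:**
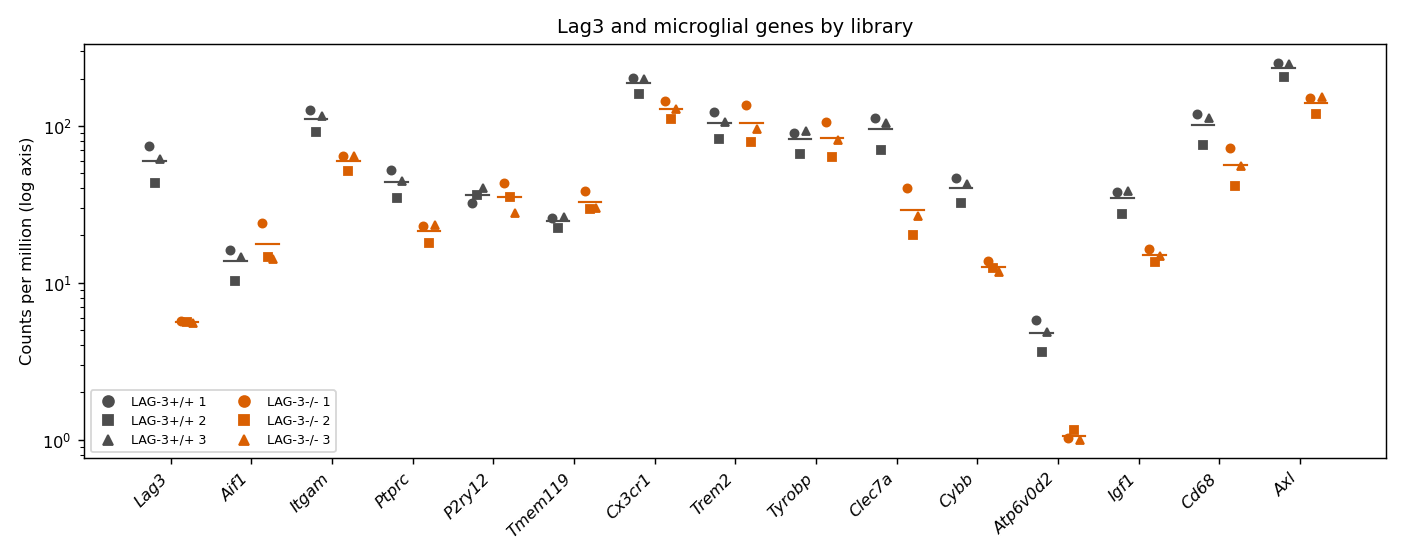
Level of Lag3 and 14 microglial genes in each library (CPM, log axis), with bars at the group means. Clec7a, Cybb, Atp6v0d2, Igf1, Cd68 and Axl were lower in every LAG-3-/- library than in any LAG-3+/+ library, while the groups overlapped for Aif1, P2ry12, Trem2 and Tyrobp.

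Homeostatic microglial genes went both ways. Of 15, 5 fell and 2 rose, with a median log2 fold change of -0.17 (-0.11 corrected, with 5 lower and 1 higher), and 3 fell when LAG-3+/+ replicate 1 or 3 or LAG-3-/- replicate 2 or 3 was left out. The corrected count was 3 lower without LAG-3-/- replicate 2. P2ry12, the ADP receptor that marks resting microglia, stood at 32.2, 36.2 and 40.4 CPM in LAG-3+/+ and at 43.0, 35.0 and 28.0 CPM in LAG-3-/- libraries, with overlapping groups (-0.04 ± 0.15, adjusted p = 0.869, edgeR). Tmem119 rose by 0.40 ± 0.13 (adjusted p = 0.0298) but stood at 0.03 corrected (adjusted p = 0.886), and at 0.33 without LAG-3+/+ replicate 2 (adjusted p = 0.111) and 0.26 without LAG-3-/- replicate 1 (adjusted p = 0.102, edgeR). Cx3cr1, the fractalkine receptor, fell from 202, 161 and 200.3 CPM to 144, 110.1 and 128 CPM (-0.56 ± 0.13, adjusted p = 0.00739, edgeR; corrected -0.43). Corrected and without LAG-3-/- replicate 2, Cx3cr1 missed the threshold (-0.35, adjusted p = 0.145, edgeR). Crybb1, a crystallin found in microglia, rose from at most 1.13 CPM to at least 2.25 CPM (1.70 ± 0.31, adjusted p = 0.00179, edgeR; corrected 1.19).

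Among 18 genes shared by microglia and macrophages, 7 fell and none rose (median -0.23), and 13 fell after correction (median -0.52). The uncorrected count was 3 without LAG-3+/+ replicate 1 or LAG-3-/- replicate 3 and 2 without LAG-3+/+ replicate 3 or LAG-3-/- replicate 2, and the corrected count was 8 without the latter. Itgam, the integrin CD11b, stood at 125, 91.4 and 115 CPM against 63.9, 51.5 and 63.9 CPM, a log2 fold change of -0.89 ± 0.14 (adjusted p = 0.000773) that was -0.79 corrected. Ptprc, the leukocyte antigen CD45, fell by 1.03 ± 0.16 (adjusted p = 0.000841, edgeR; corrected -0.69), and the protease Ctss by 0.55 ± 0.17 (adjusted p = 0.026, edgeR; corrected -0.85). Ctss missed the threshold without LAG-3+/+ replicate 3 (-0.48, adjusted p = 0.107) or LAG-3-/- replicate 2 (-0.44, adjusted p = 0.102, edgeR). Aif1, which encodes the stained marker Iba1, stood at 16.2, 10.2 and 14.6 CPM against 24.1, 14.6 and 14.3 CPM and did not pass the test (0.36 ± 0.24, adjusted p = 0.26). The list thus held genes on both sides of 0, and the summed level of its members, 1734 to 2485 CPM in LAG-3+/+ and 1425 to 2210 CPM in LAG-3-/- libraries, overlapped between the groups.

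Sex by transcripts differed within the LAG-3-/- group only. In a fit with sex by transcripts as a covariate, added after the data were seen, the genotype difference is that of the female LAG-3-/- replicate 1 against the 3 LAG-3+/+ libraries. There, 6 of the 27 disease-associated genes fell and 1 rose (background 20.7% lower and 19.1% higher), with a median of -0.18. With the correction 5 fell and none rose (background 7.62% lower and 9.88% higher), with a median of -0.39. For the 15 homeostatic genes the median was 0.08, and 0.10 with the correction. For the 18 shared genes the counts were 2 lower and 2 higher, with a median of 0.05, and 3 lower and 1 higher with the correction, with a median of -0.28. Of the single genes, Clec7a stayed lower and past the threshold in each alternative fit that was run, with -1.25 in the one with sex by transcripts.

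Upstream sequence of 4 of the microglial genes that fell is shown because they fell together and because the core GAGGAA, bound by the myeloid factor PU.1, is a usual element of such genes. The windows are the 150 bases before the first RefSeq start (GRCm38.p6), read 5′ to 3′ on the gene's strand, with GAGGAA or its reverse complement in capitals. They are chr6:129472780-129472929 (minus strand) for Clec7a, chr7:128062490-128062639 (plus) for Itgam, chr10:87860961-87861110 (plus) for Igf1 and chrX:9469325-9469474 (minus) for Cybb.
Clec7a: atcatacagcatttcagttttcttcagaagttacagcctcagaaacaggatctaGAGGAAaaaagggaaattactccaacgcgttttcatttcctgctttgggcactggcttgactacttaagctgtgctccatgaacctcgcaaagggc
Itgam: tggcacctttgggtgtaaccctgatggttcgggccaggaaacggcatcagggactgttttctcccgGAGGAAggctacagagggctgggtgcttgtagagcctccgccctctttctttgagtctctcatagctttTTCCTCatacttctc
Igf1: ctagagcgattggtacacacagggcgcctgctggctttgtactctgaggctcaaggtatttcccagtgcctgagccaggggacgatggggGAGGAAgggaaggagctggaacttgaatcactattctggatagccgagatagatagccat
Cybb: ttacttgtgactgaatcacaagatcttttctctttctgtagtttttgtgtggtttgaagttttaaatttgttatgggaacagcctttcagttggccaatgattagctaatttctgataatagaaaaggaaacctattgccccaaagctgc

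The core was present once upstream of Clec7a and Igf1, at both strands upstream of Itgam and in no copy in the Cybb window. Among the 11 named microglial genes that fell, 9 had a RefSeq window and 4 of these held the core (Itgam, Igf1, Clec7a and Axl), while 14.4% of the windows of 27020 genes held it. A match is a description of letters and not a binding site.

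Transcripts of other immune cells were scarce. The first 3 genes of the T and NK cell list, Cd3d, Cd3e and Cd3g, lay at or under 0.429 CPM in every library, and only 3 of its 17 genes passed the filter, of which none passed the test. The summed list stood at 4.56 to 6.40 CPM in LAG-3+/+ and 5.40 to 7.497 CPM in LAG-3-/- libraries. Of the B and plasma cell list, Cd79a was at or under 0.276 CPM, and Ighm rose from 22.8, 26.2 and 24.8 CPM to 40.9, 35.2 and 39.1 CPM (0.64 ± 0.11, adjusted p = 0.00122, edgeR; corrected 0.31). The neutrophil genes S100a8 and S100a9 were at or under 5.37 CPM, with the highest value in LAG-3-/- replicate 2.

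Of 8 tested genes of border macrophages and monocytes, Ms4a7 fell (4.75, 2.37 and 3.24 against 2.002, 2.17 and 1.15 CPM), though not without LAG-3+/+ replicate 1 (-0.66, adjusted p = 0.143) or LAG-3-/- replicate 3 (-0.75, adjusted p = 0.111, edgeR). The mannose receptor Mrc1 showed how 1 library weighed on this list: it stood at 4.04, 3.18 and 2.93 CPM in LAG-3+/+ and at 0.915, 4.22 and 0.75 CPM in LAG-3-/- libraries, the second being the one with Schwann cell transcripts. With that library its log2 fold change was -0.74 ± 0.62 (adjusted p = 0.389), and without it -2.02 (adjusted p = 0.00219, edgeR). Without that library 5 of the 8 genes fell (background 19.9%).

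The calls among interferon, complement and innate sensing genes were nearly all lower, and fewer genes were called with sex by transcripts as a covariate (background 20.7% lower, and 7.62% corrected). Of 25 interferon-stimulated genes 12 fell and none rose (median -0.60), and 8 fell after correction (median -0.62), or 5 without LAG-3-/- replicate 2. With sex by transcripts 7 fell (median -0.44), and 3 with the correction (median -0.31). Rigi, the cytosolic RNA sensor, stood at 18.1, 13.8 and 16.6 CPM against 7.61, 8.33 and 8.01 CPM (-1.01 ± 0.14, adjusted p = 0.000555, edgeR; corrected -0.83). Ifi207 fell by 1.58 ± 0.26 on the log2 scale (adjusted p = 0.00123), and Parp14, an ADP-ribosyltransferase, by 1.17 ± 0.19 (adjusted p = 0.001, edgeR).

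Of 23 innate inflammatory genes 8 fell and 1 rose (median -0.48), with 16 lower and 1 higher after correction (median -0.53). Without LAG-3-/- replicate 1 the uncorrected count was 13 lower, and without any one of the others but LAG-3+/+ replicate 2 it was 5. The corrected count was 8 lower without LAG-3-/- replicate 2, and with sex by transcripts 5 fell, with and without the correction. Tlr7, the X-linked sensor of single-stranded RNA, stood at 24.6, 19.2 and 24.8 CPM in LAG-3+/+ and at 10.9, 6.98 and 8.26 CPM in LAG-3-/- libraries. Its groups did not overlap (-1.40 ± 0.17, adjusted p = 0.000351, edgeR; corrected -1.06). Tlr4, the endotoxin receptor, fell by 1.32 ± 0.20 (adjusted p = 0.000716). The cytokine Il18 rose, from 9.17, 9.63 and 10.03 CPM to 17.9, 15.7 and 14.2 CPM (0.73 ± 0.13, adjusted p = 0.00183, edgeR; corrected 0.45).

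Of 15 complement genes 6 fell and none rose (median -0.59), and 6 fell after correction, 3 of them in both fits. With sex by transcripts 2 fell (median -0.46), and 2 with the correction (median -0.40). Itgb2, the beta chain of complement receptor 3, stood at 87.3, 69.5 and 82.4 CPM against 53.4, 38.0 and 52.6 CPM (-0.73 ± 0.14, adjusted p = 0.00253, edgeR; corrected -0.82). C3ar1, the C3a receptor, fell by 0.84 ± 0.20 (adjusted p = 0.0108) but stood at -0.50 corrected (adjusted p = 0.167, edgeR) and lies 2.05 Mb from Lag3. Of 15 antigen presentation genes 1 rose (H2-DMa) and 1 fell (Nlrc5), and after correction 4 others fell, with neither of these called. Without LAG-3+/+ replicate 2 the uncorrected count was 4 lower and none higher, and with sex by transcripts 2 rose and none fell, or none either way with the correction.

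Lysosomal genes fell in part. Of 30, 16 fell and 1 rose (median -0.39), and the counts were the same after correction (median -0.32), with 12 genes lower in both fits. With sex by transcripts the median was -0.18, against -0.39 without it. With sex by transcripts and the correction the median was -0.29, against -0.32 with the correction alone. Lipa, the acid lipase, stood at 59.7, 52.7 and 60.9 CPM against 40.8, 33.5 and 33.2 CPM (-0.69 ± 0.11, adjusted p = 0.00109, edgeR; corrected -0.63). Ctsc, a protease that activates other proteases, fell by 0.76 ± 0.14 (adjusted p = 0.00192). Lamp1, an abundant protein of the lysosomal membrane, stood at 826, 834 and 934 CPM against 980.0, 834 and 859 CPM and did not pass the test (0.04 ± 0.13, adjusted p = 0.821).

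Reactive astrocyte genes were lower, and general astrocyte genes went both ways. Of 17 reactive genes 10 fell and 1 rose, with a median log2 fold change of -0.55, and after correction 10 fell and none rose, with a median of -0.70. The uncorrected count was 6 without LAG-3+/+ replicate 1 or 3 or LAG-3-/- replicate 3. Serpina3n, a secreted protease inhibitor, stood at 1356, 888 and 1277 CPM in LAG-3+/+ and at 569, 279.6 and 509.5 CPM in LAG-3-/- libraries, with no overlap (-1.37 ± 0.27, adjusted p = 0.0044, edgeR; corrected -1.57). Osmr, the oncostatin M receptor, stood at 68.4, 45.5 and 58.2 CPM against 25.6, 15.7 and 19.4 CPM (-1.51 ± 0.20, adjusted p = 0.000635, edgeR; corrected -1.16). Stat3, the factor downstream of that receptor family, fell by 0.55 ± 0.12 (adjusted p = 0.00499, edgeR; corrected -0.41).

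Gfap, the filament protein stained as the astrocyte marker, stood at 9001, 7450.1 and 8839 CPM against 8599, 4673 and 6829 CPM. These groups overlapped and Gfap did not pass the test (-0.33 ± 0.22, adjusted p = 0.257). Vim, the other filament protein of the list, fell by 0.43 ± 0.17 (adjusted p = 0.0726) and by 0.70 corrected (adjusted p = 0.0132, edgeR). Its uncorrected call was lost without LAG-3+/+ replicate 1 (-0.33, adjusted p = 0.201) or 3 (-0.39, adjusted p = 0.196) or LAG-3-/- replicate 2 (-0.29, adjusted p = 0.252) or 3 (-0.44, adjusted p = 0.156, edgeR). The fit with sex by transcripts as a covariate sets LAG-3-/- replicate 1 against the LAG-3+/+ libraries. There the median of the 17 genes was -0.41, against -0.55 without the covariate. With the correction these medians were -0.46 and -0.70.

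Of 21 general astrocyte genes 5 rose and 6 fell (median -0.07), and 3 rose and 5 fell after correction. With sex by transcripts and the correction 3 rose and none fell. The values of the longest named transcripts moved towards 0 with the correction. Slc1a2, the main glutamate transporter (12025 bases), fell from 2679, 2979 and 3096 CPM to 1746, 1484 and 1613 CPM (-0.85 ± 0.14, adjusted p = 0.00116), but stood at -0.16 corrected (adjusted p = 0.491, edgeR). Slc4a4, a bicarbonate transporter (8168 bases), fell by 0.82 ± 0.12 (adjusted p = 0.000569) and stood at -0.30 corrected (adjusted p = 0.0924, edgeR). Aqp4, the water channel of the end-feet (5156 bases), stood at 1950.2, 1711 and 2026 CPM against 1069.6, 811 and 979.7 CPM (-0.99 ± 0.15, adjusted p = 0.000736) and at -0.64 corrected (adjusted p = 0.0146, edgeR). The glutamate transporter Slc1a3 did not pass the test (-0.14 ± 0.10, adjusted p = 0.331).

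Myelin genes were higher. Of 26 oligodendrocyte genes 15 rose and none fell, with a median log2 fold change of 0.37, and after correction 8 rose and none fell, with a median of 0.24. Mbp, a main protein of compact myelin, stood at 7427, 7053 and 7828 CPM in LAG-3+/+ and at 18068, 14493 and 12187 CPM in LAG-3-/- libraries (1.004 ± 0.19, adjusted p = 0.00206, edgeR; corrected 0.69). Mbp is also made by Schwann cells, whose summed list stood at 74.65, 1531 and 62.94 CPM in the LAG-3-/- libraries. Without LAG-3-/- replicate 2 Mbp had a log2 fold change of 1.02 (adjusted p = 0.00693, edgeR), and 17 of the 26 genes rose (background 18.8%). Corrected, the log2 fold change of Mbp without that library was 0.70 (adjusted p = 0.0502, edgeR). The corrected count without it was 6 of the 26 genes higher (background 9.01%).

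Hapln2, a matrix link protein at nodes of Ranvier, rose from 84.9, 81.9 and 76.7 CPM to 154, 116 and 134 CPM (0.73 ± 0.12, adjusted p = 0.00104, edgeR; corrected 0.72). Mag did not pass the test in either fit (0.27 ± 0.14, adjusted p = 0.166; corrected -0.14, adjusted p = 0.499, edgeR).

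Among 18 genes of oligodendrocyte precursors 3 rose and 5 fell (median -0.09), with 1 higher and 4 lower after correction. The extracellular matrix gene Tnr (12202 bases) fell by 1.16 ± 0.13 (adjusted p = 0.000288, edgeR), and Ptprz1 (9511 bases) by 0.93 ± 0.11 (adjusted p = 0.000298, edgeR). Corrected, their log2 fold changes were -0.50 and -0.34. Pdgfra, the receptor that defines these cells, stood at 64.8, 58.7 and 72.4 CPM against 40.6, 44.2 and 50.4 CPM (-0.54 ± 0.12, adjusted p = 0.00445), and at -0.12 corrected (adjusted p = 0.424, edgeR). Olig1 moved the other way, by 0.46 ± 0.13 (adjusted p = 0.0139), and stood at 0.04 corrected (adjusted p = 0.862, edgeR).

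Neuronal genes did not move as 1 group. Of 20 general neuronal genes 5 rose and 2 fell, with a median of 0.15 (0.14 corrected, with 3 higher and 2 lower). Without LAG-3+/+ replicate 1 the count was 4 lower, and without LAG-3+/+ replicate 2 it was 8 higher. The counts were 5 higher and 7 lower with sex by transcripts. Rbfox3, the nuclear antigen NeuN, stood at 105, 121 and 105 CPM against 84.4, 115 and 117 CPM and did not pass the test (-0.07 ± 0.14, adjusted p = 0.726), nor did the synaptic genes Snap25 (0.22 ± 0.16, adjusted p = 0.296) and Syt1 (-0.13 ± 0.18, adjusted p = 0.611, edgeR). Uchl1, a deubiquitinase abundant in neurons, rose from 256, 372 and 338 CPM to 658, 640.2 and 592 CPM (0.97 ± 0.15, adjusted p = 0.00078, edgeR; corrected 0.62). Tubb3, the neuronal tubulin, rose by 0.82 ± 0.15 (adjusted p = 0.00182) and by 0.75 corrected. Scn2a, a sodium channel with a transcript of 8751 bases, fell by 0.88 ± 0.14 (adjusted p = 0.00111) and by 0.32 corrected (adjusted p = 0.0736, edgeR).

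Of 11 motor neuron genes 7 rose and none fell (median 0.83), and 4 rose after correction (median 0.71). Prph, the intermediate filament of motor and sensory neurons, stood at 19.8, 29.5 and 24.1 CPM in LAG-3+/+ and at 80.1, 53.0 and 59.2 CPM in LAG-3-/- libraries (1.39 ± 0.18, adjusted p = 0.000597, edgeR; corrected 0.91). Calca, the precursor of calcitonin gene-related peptide, stood at 6.59, 12.5 and 7.26 CPM against 49.0, 30.1 and 24.6 CPM (1.98 ± 0.35, adjusted p = 0.00606, edgeR; corrected 1.55). Chodl, a membrane protein of fast motor neurons, stood at 3.07, 3.53 and 3.51 CPM against 10.1, 10.6 and 8.26 CPM (1.52 ± 0.17, adjusted p = 0.000282, edgeR; corrected 1.52). The groups did not overlap for any of them.

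The enzyme that defines cholinergic neurons did not follow. Chat stood at 6.66, 11.8 and 8.11 CPM in LAG-3+/+ and at 9.10, 7.66 and 10.8 CPM in LAG-3-/- libraries, with a log2 fold change of 0.05 ± 0.22 (adjusted p = 0.877). The choline transporter Slc5a7 likewise had overlapping groups (0.02 ± 0.25, adjusted p = 0.959, edgeR). The vesicular transporter Slc18a3, whose gene lies inside the Chat locus, stood at 12.7, 21.6 and 16.9 CPM against 35.8, 23.8 and 31.6 CPM (0.83 ± 0.20, adjusted p = 0.0108) and did not pass corrected (0.46, adjusted p = 0.134, edgeR). Prph and Calca are also made by sensory neurons. Without LAG-3-/- replicate 2 the corrected count was again 4 of 11 (background 9.01%).

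**Figure D4:**
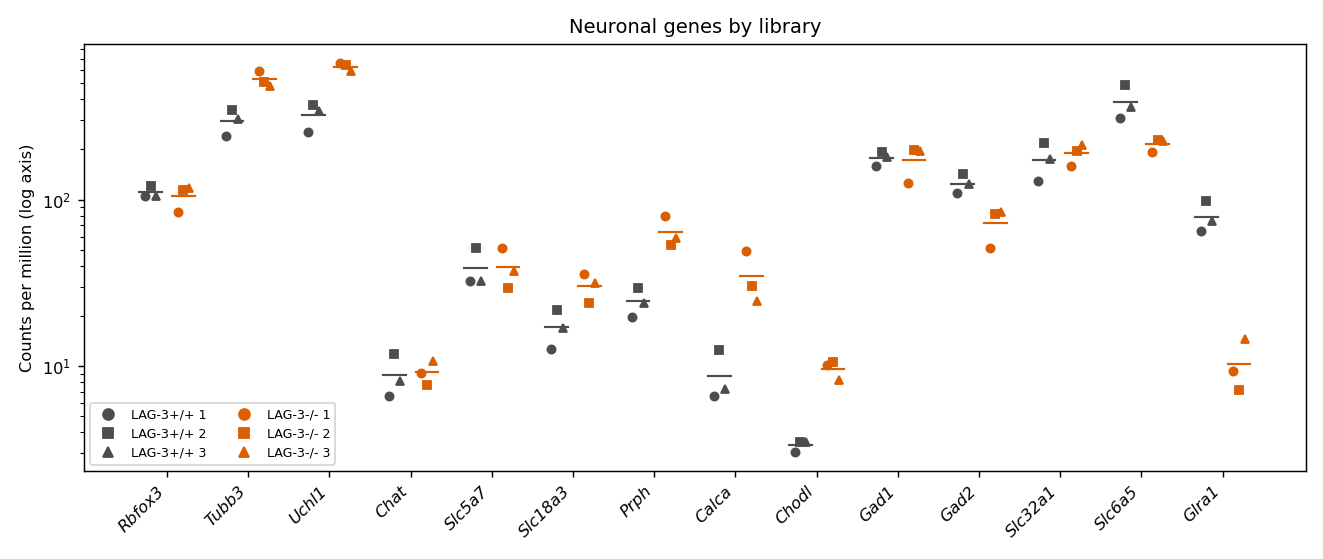
Level of 14 neuronal genes in each library (CPM, log axis), with bars at the group means. Prph, Calca and Chodl were higher, and Glra1, Gad2 and Slc6a5 lower, in every LAG-3-/- library than in any LAG-3+/+ library, while the groups overlapped for Rbfox3, Chat, Slc5a7, Gad1 and Slc32a1.

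Of 12 genes of inhibitory neurons and their synapses 5 fell and none rose (median -0.23), and 3 fell and 1 rose after correction. One gene stood apart. Glra1, the adult glycine receptor subunit through which spinal interneurons inhibit motor neurons, stood at 64.5, 97.9 and 74.9 CPM in LAG-3+/+ and at 9.38, 7.22 and 14.5 CPM in LAG-3-/- libraries. Its log2 fold change was -2.94 ± 0.28 (adjusted p = 0.000437) and -3.07 corrected (adjusted p = 0.00162, edgeR), with values of -2.72 without LAG-3-/- replicate 2 and no overlap between groups. The next by p was Slc6a5, the glycine transporter of glycinergic terminals (7065 bases), which fell by 0.84 ± 0.16 (adjusted p = 0.00234, edgeR). It stood at -0.41 corrected (adjusted p = 0.0742), and at -0.46 corrected without LAG-3-/- replicate 2 (adjusted p = 0.114, edgeR). After it came Gad2, which makes GABA (6099 bases), with -0.78 ± 0.18 (adjusted p = 0.008, edgeR). Gad2 did not pass corrected (-0.38, adjusted p = 0.127, edgeR).

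Gad1 and Slc32a1 of the same list did not pass the test. Gad1, the other GABA-making enzyme, stood at 159, 194 and 181 CPM against 126, 199 and 197 CPM (-0.03 ± 0.17, adjusted p = 0.906), and Slc32a1, the vesicular transporter for GABA and glycine, had a log2 fold change of 0.12 ± 0.18 (adjusted p = 0.624, edgeR). Of 13 glutamatergic genes 2 rose and 5 fell (median -0.28), and 1 rose and none fell after correction (median 0.06). With sex by transcripts 2 rose and 8 fell, and none was called with the correction. Grin2b, an NMDA receptor subunit with the very long transcript of 24238 bases, went from -0.98 ± 0.23 (adjusted p = 0.0107) to -0.04 corrected (adjusted p = 0.884, edgeR). Tac1, the substance P precursor of the dorsal horn, rose from 16.3, 19.5 and 22.3 CPM to 29.3, 43.6 and 32.5 CPM (0.86 ± 0.17, adjusted p = 0.00246, edgeR; corrected 0.77). The excitatory transporter Slc17a6 did not pass the test (-0.28 ± 0.16, adjusted p = 0.195).

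Of 13 immediate early genes, which firing neurons and stressed cells induce, 6 fell and 1 rose (median -0.39), and 8 fell and none rose after correction (median -0.47). Fos stood at 42.6, 32.4 and 43.3 CPM in LAG-3+/+ and at 28.2, 18.2 and 26.3 CPM in LAG-3-/- libraries, a log2 fold change of -0.71 ± 0.17 (adjusted p = 0.00882) and -0.94 corrected. Egr1 fell by 0.50 ± 0.10 (adjusted p = 0.00282, edgeR).

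Endothelial genes went both ways. Of 26, 5 rose and 8 fell (median -0.08), with 3 higher when any one of the LAG-3+/+ libraries or LAG-3-/- replicate 2 was left out, and 2 rose and 3 fell after correction (median -0.03). The counts were 2 higher and 9 lower with sex by transcripts. Egfl7, a secreted endothelial factor (1459 bases), stood at 12.3, 10.4 and 10.8 CPM against 27.9, 29.6 and 21.4 CPM (1.24 ± 0.14, adjusted p = 0.000294, edgeR; corrected 0.71). Flt1, a VEGF receptor (6895 bases), fell from 79.7, 72.9 and 77.2 CPM to 44.0, 49.95 and 48.8 CPM (-0.69 ± 0.10, adjusted p = 0.000582, edgeR; corrected -0.31). Cldn5, the tight junction protein of the barrier (1416 bases), rose by 0.50 ± 0.11 (adjusted p = 0.00419) and had the opposite sign corrected (-0.07, adjusted p = 0.661, edgeR). The adhesion genes Pecam1 (-0.29 ± 0.13, adjusted p = 0.106) and Cdh5 (-0.11 ± 0.18, adjusted p = 0.642, edgeR) did not pass the test, and the summed list overlapped between the groups (678 to 722 CPM in LAG-3+/+, 614 to 721 CPM in LAG-3-/-).

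Of 15 pericyte and smooth muscle genes 2 rose and 6 fell (median -0.05), and 4 fell after correction, or 2 without LAG-3-/- replicate 2. The median was -0.22, -0.29 and -0.27 without LAG-3-/- replicate 1, 2 and 3 and -0.13 without LAG-3+/+ replicate 2, and with sex by transcripts it was -0.37, with 3 higher and 4 lower. Notch3, the receptor that keeps mural cells in place, stood at 51.1, 40.9 and 49.2 CPM against 17.1, 14.7 and 29.7 CPM (-1.20 ± 0.25, adjusted p = 0.00719, edgeR; corrected -1.001). Anpep, a surface peptidase of pericytes, fell by 1.06 ± 0.23 (adjusted p = 0.00421) and by 1.03 corrected. Pdgfrb, which defines these cells, fell by 0.53 ± 0.15 (adjusted p = 0.0149) and by 0.37 corrected (adjusted p = 0.0866, edgeR).

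The lists of meningeal and Schwann cells rested on LAG-3-/- replicate 2. Fibroblast and meningeal genes had a median log2 fold change of 0.73 with it and of -0.18 without it, with Col1a1 at 18.2, 12.6 and 14.5 CPM against 12.1, 71.4 and 11.3 CPM. Schwann cell genes had a median of 0.60 with it and of -0.56 without it, and 4 of the 7 tested then fell. Of 15 ependymal genes 2 rose and none fell, and after correction none rose and 1 fell. Without LAG-3-/- replicate 2 none was called, without LAG-3-/- replicate 3 the count was 1 higher and 3 lower, and with sex by transcripts it was 1 higher and 4 lower. The master regulator of cilia Foxj1 stood at 36.1, 37.8 and 36.9 CPM against 35.9, 30.5 and 39.8 CPM (-0.06 ± 0.12, adjusted p = 0.704; corrected -0.39, adjusted p = 0.0187, edgeR). As a mark of the level of the cord that was cut, 7 of 9 thoracic Hox genes rose (median 0.31), and 7 without LAG-3-/- replicate 2. After correction 3 rose, or 1 without that library. Their summed level stood at 489 to 563 CPM in LAG-3+/+ and at 708 to 724 CPM in LAG-3-/- libraries. With sex by transcripts their median was 0.50, and 0.18 with the correction. Whether both groups were cut at the same level was not tested. None of 8 lumbosacral Hox genes passed the test (median 0.16), 1 fell after correction, and with sex by transcripts 2 fell (median -0.89), or 3 with the correction. Hoxd11, a caudal gene, stood at 0.400 CPM in LAG-3-/- replicate 1 and at 3.15 to 6.32 CPM in the other 5 libraries.

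**Figure D5:**
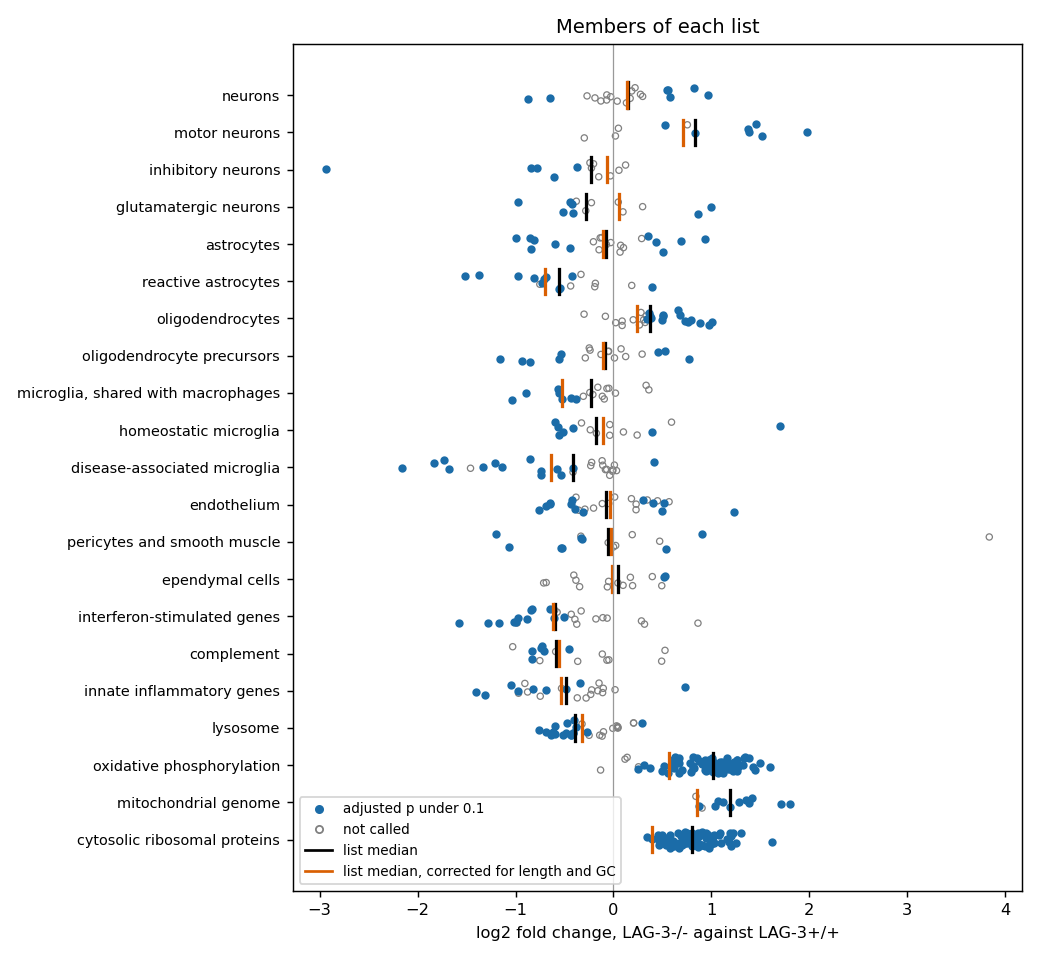
Log2 fold change (LAG-3-/- against LAG-3+/+) of each tested gene of 21 lists, filled where the adjusted p was under 0.1, with black bars at the list medians and orange bars at the medians corrected for transcript length and GC content. The disease-associated microglia list moved from -0.41 to -0.64 with the correction, the ribosomal list from 0.81 to 0.39 and the glutamatergic list from -0.28 to 0.06.

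Genes of energy production and protein synthesis were higher almost without exception, and their transcripts are short. Of 78 nuclear genes of oxidative phosphorylation (median length 1215.5 bases) 74 rose and none fell, with a median log2 fold change of 1.01. After correction 64 rose and 1 fell, with a median of 0.57, and without LAG-3-/- replicate 2 the corrected count was 55 higher and none lower. Ndufa13, a subunit of complex I, stood at 47.6, 54.4 and 53.7 CPM against 152, 137 and 100.02 CPM (1.32 ± 0.15, adjusted p = 0.000281, edgeR; corrected 0.82). Ndufb11 (1.16 ± 0.13, adjusted p = 0.000249) and Ndufa2 (1.45 ± 0.16, adjusted p = 0.000288, edgeR) of the same complex rose as well.

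Of the 13 protein genes of the mitochondrial genome 11 rose and none fell (median 1.19), and 11 rose after correction (median 0.85). The cytochrome oxidase subunit mt-Co1 stood at 14319, 10615 and 16213 CPM against 42313, 42471 and 22629.6 CPM (1.38 ± 0.27, adjusted p = 0.00257, edgeR; corrected 1.12), so that LAG-3-/- replicate 3 lay nearest to the LAG-3+/+ libraries. All 77 genes of cytosolic ribosomal proteins (median length 1096 bases) rose, with a median of 0.81, and 43 rose after correction with none lower, at a median of 0.39. Rps19 stood at 73.2, 75.6 and 78.8 CPM against 215, 178 and 133 CPM (1.21 ± 0.16, adjusted p = 0.000434, edgeR; corrected 0.77). Ribosomal protein genes have many processed copies in the genome, between which reads may be split.

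The largest fold changes belonged mainly to pseudogenes, predicted genes and overlapping loci. In 5 annotated genes the LAG-3+/+ libraries had 0 counts and each LAG-3-/- library 10 or more, and in 6 the reverse held. None of the 11 was on chromosome 6. Gdf1 (chromosome 8, 70768317 to 70784242) had 0 counts in the LAG-3+/+ and 32.2, 19.8 and 19.01 CPM in the LAG-3-/- libraries, at least 198-fold higher than a floor of 3 counts per library. It shares its locus with Cers1, a ceramide synthase whose transcript has 2831 bases against 2836, and the summed pair stood at 61.2, 76.6 and 73.3 CPM against 84.3, 77.5 and 92.2 CPM, so the split between them is uncertain.

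A similar exchange was seen at Gm4988 on the X chromosome, where 2 overlapping entries were each present in 1 genotype only. Whether the reads of both genotypes were assigned to the same set of annotated transcripts was not tested. The fold bounds given for entries with 0 counts in a whole group depend on it. Lenep, a lens epithelial protein, had 0 counts in the LAG-3+/+ and 2.75, 2.09 and 2.30 CPM in the LAG-3-/- libraries, at least 19.9-fold higher than that floor. The other large rises were Gm68273, Gm14434, Gm27177, Gm66301 and Gm75297, from at most 1.68 CPM to between 5.29 and 39.4 CPM. On the other side Eif4a-ps4, Gm9762, Rpl37rt and Gm49450 had 0 counts in every LAG-3-/- library, at least 82.3-fold, 40.8-fold, 32.1-fold and 16.5-fold lower against the same floor. The first 3 are processed pseudogenes, whose reads could belong to their parent genes.

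Among the large falls 3 genes other than Lag3 had counts in both groups. Gm20431 stood at 9.21, 10.7 and 10.8 CPM in LAG-3+/+ and at or under 0.458 CPM in LAG-3-/- libraries. Klrb1b, an inhibitory lectin of natural killer cells that is encoded 3.90 Mb from Lag3, stood at 3.97, 2.37 and 3.59 CPM against 0.229, 0.276 and 0.200 CPM (-3.77 ± 0.35, adjusted p = 0.000127, edgeR). This locus differs between mouse strains, and a linked 129S6 allele and an effect of genotype cannot be told apart. Oprm1, the mu opioid receptor (chromosome 10), stood at 4.60, 7.70 and 5.85 CPM against 0.400, 0.395 and 0.801 CPM, a log2 fold change of -3.50 ± 0.32 (adjusted p = 0.000127) and -3.86 corrected (adjusted p = 0.000297, edgeR). Its groups did not overlap, and without LAG-3-/- replicate 2 its log2 fold change was -3.30 (adjusted p = 0.000785, edgeR).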

How the data were processed

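RNA of P140 lumbar cord was sequenced from 3 SOD1G93A/LAG-3+/+ and 3 SOD1G93A/LAG-3-/- mice. The study's methods give the NEBNext Ultra II Directional kit for cord, whereas the labels name SMART-seq mRNA HT LP. Whether both genotypes were prepared together is not given in the sources used here. Per the labels, the authors used Trim Galore 0.6.7, Salmon 1.9.0 and R 4.2.1 with GRCm39, and they deposited estimated counts (tximport) of 74021 Ensembl genes, not normalized. These were rounded and named by GENCODE vM39, which lacked 71 identifiers (0.0145% of counts).

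edgeR 4.0.16 in R 4.3.3 was used with filterByExpr (minimum count 10, minimum total 15), TMM and the robust quasi-likelihood test (common dispersion 0.0247). The correction fitted, per library, splines (4 degrees of freedom) of log2 CPM deviations on log10 canonical transcript length and GC content, and used them as offsets for 17695 genes. The fits were tested on simulated data. Without a trend on length and GC, the uncorrected fit called 0.214% of the unchanged genes. With the fitted trends of these libraries added, it called 23.8% of 17257 unchanged genes, and the corrected fit called 0.197%. The added trend was of the form that the correction removes, so the last value cannot show how well the correction suits the real data. An exact permutation test of 3 against 3 cannot go below 0.1, so it was not used.

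The 32 lists, of 631 genes, and the other choices were made with earlier results of these data known. Named genes are Lag3, Sod1, the 8 largest rises and falls at a mean of at least 1 CPM, the 3 smallest p of each list, the first 3 genes of each cell type list, and the genes the study stained. Lists are described without a set test. Alternatives were DESeq2 1.42.0, other scalings and filters, sex, replicate block, length and GC offsets, and each library left out. Microglial tables were not used. A few genes that this rule names are not reported here.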

Additional observations from a re-analysis of the deposited data

How the results depend on the processing

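The difference in Lag3 stayed lower and past the threshold in each alternative. With the offset from transcript length and GC content, of the 157 other named genes 130 stayed on their side of the threshold, 20 lost the call, 3 gained one and 4 turned their sign. The cause of the changes listed here was not tested, beyond what the construction of an alternative shows. Genes higher by adjusted p and fold (773) numbered 485 with library size alone, 312 with the length and GC offset, 277 with the offset and without the library with Schwann cell transcripts, and 361 with the offset and sex by transcripts. Genes lower by both (558) numbered 883 with sex by transcripts. By adjusted p alone (4096 higher, 4234 lower), the offset gave 2450 and 2229, the offset without the Schwann cell library 1619 and 1383, and the offset with sex by transcripts 1748 and 1349. The alternatives with sex by transcripts, and those with the Schwann cell library left out together with the offset, were chosen after seeing the data.

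Same-numbered libraries of the 2 genotypes did not deviate together (correlations of 0.03, 0.01 and -0.07 over 15632 genes), so the numbers were not taken as pairs. A replicate block gave 4019 higher and 4296 lower genes, and with the offset 2460 and 2355, with 296 higher by adjusted p and fold. With block and offset the oligodendrocyte median was 0.24, and the log2 fold changes of Tyrobp, Cldn5, Rarres2 and H2-DMa were -0.61, -0.0703, -0.0081 and -0.14.

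The astrocyte median (-0.07) was -0.20 with library size alone, 0.0136 with sex by transcripts, 0.0338 with that and the offset, and -0.12 to 0.0277 when 1 library was left out, the highest without LAG-3-/- replicate 2. The oligodendrocyte median (0.37) was 0.23 with library size alone, 0.24 with the offset and 0.54 with sex by transcripts, and the endothelial median (-0.08) was -0.21 with library size alone. The correlation with length (-0.56) was -0.45 with summed exon length and -0.57 to -0.50 with 1 library left out.

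With the offset, signs turned for Tyrobp (-0.60, and -0.41 without the Schwann cell library), Cldn5 (-0.0722 and -0.0738), Rarres2 (-0.0099 and -0.11) and H2-DMa (-0.14 and -0.12). With the offset and sex by transcripts they turned for Slc1a2 (0.0846), Cldn5 (-0.15), Vtn (-0.0055), Rgs5 (0.0521), Rarres2 (-0.0642), Rsph1 (-0.35) and H2-DMa (-0.19). Leaving out 1 library moved Col3a1 between -0.74 and 2.92 and Ncmap between -1.02 and 1.95, both lowest without LAG-3-/- replicate 2, and Ncmap was -0.92 without it with the offset. Depth was similar in the 6 libraries, and genes under the filter on low counts, such as most T cell genes, could not be tested.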
